A study of Mus musculus with 12 samples.

Results

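Reactive gliosis marker genes are transcripts that retinal glia are known to raise after injury or stress. The 8 examined here were Gfap, Vim, Nes, Lcn2, Serpina3n, Cp, Cd44 and Steap4, a fixed list of intermediate filament and acute-phase genes, found by Ensembl identifier among the 53707 genes of the RNA count table. All 8 were present and all 8 passed the filter on low counts, with 21061 genes tested in total. Retinas of wild-type C57Bl/6J mice aged 28 days, freed of sclera and pigment epithelium, were kept as explants for 48 hours in Neurobasal-A medium with 5 mM or 25 mM glucose, so that both groups share the dissection, the medium and the time in culture. Each concentration had 3 biological replicates, and each of these was sequenced as 2 technical replicates, which gave 12 libraries. Technical replicate 1 of every sample belonged to batch 1 and technical replicate 2 to batch 2. The labels do not say whether biological replicates came from separate animals, so p-values measure the spread between these samples, and no uncultured retina was compared here.

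In the mouse retina, Müller glia span all layers and, with astrocytes of the nerve fibre layer, form the macroglia. When stressed, they add intermediate filament proteins (GFAP, vimentin, nestin) to their cytoskeleton and release acute-phase proteins that inflammatory cytokines induce through the STAT3 and NF-κB pathways. Lipocalin 2 binds bacterial iron carriers, serpin A3N inhibits serine proteases, ceruloplasmin oxidizes iron for export, CD44 is the main cell-surface receptor for hyaluronan, and STEAP4 is a metalloreductase of iron and copper. All 8 are protein-coding genes of GENCODE M21. On GRCm38, Gfap lies at chr11:102887336-102900912, Vim at chr2:13573927-13582826, Nes at chr3:87971078-87980451 and Lcn2 at chr2:32384633-32388252. Serpina3n lies at chr12:104406729-104414329, Cp at chr3:19957054-20009145, Cd44 at chr2:102811141-102901665 and Steap4 at chr5:7960457-7982213. Vascular cells, fibroblasts and immune cells also express several of these genes, vimentin, CD44 and lipocalin 2 among them.

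Sequence just upstream of 3 of the genes is shown because the same cytokine pathways are known to act on genes of this kind. The stretches come from RefSeq promoter windows on build GRCm38.p6 and are written 5′ to 3′ along the strand of the gene. Capitals mark matches on either strand to a STAT motif (TTCNNNGAA), a C/EBP motif (TTGCNNAA), an AP-1 motif (TGANTCA) or the NF-κB consensus. Gfap is at chr11:102897201-102897450 on the minus strand and Serpina3n at chr12:104406458-104406707 on the plus strand. Steap4 is at chr5:7960222-7960456 on the plus strand, where the stretch ends before the annotated first exon of Steap4 itself. The Gfap stretch lies directly upstream of Gfap-202 and is 69 bases away from the start of Gfap-201, the 2 coding transcripts. It falls inside the gene range given above because Gfap-203, a noncoding transcript with under 1% of the Gfap counts, starts farther upstream, at base 102900912.
Gfap: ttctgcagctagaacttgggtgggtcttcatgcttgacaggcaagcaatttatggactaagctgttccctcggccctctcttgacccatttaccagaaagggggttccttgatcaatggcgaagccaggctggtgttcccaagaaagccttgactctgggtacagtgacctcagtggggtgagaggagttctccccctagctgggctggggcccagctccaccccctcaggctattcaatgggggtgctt
Serpina3n: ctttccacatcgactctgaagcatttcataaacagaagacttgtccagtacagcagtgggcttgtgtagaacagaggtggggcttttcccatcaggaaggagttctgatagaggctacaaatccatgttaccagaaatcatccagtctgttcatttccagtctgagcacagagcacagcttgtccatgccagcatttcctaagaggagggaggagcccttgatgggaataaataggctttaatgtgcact
Steap4: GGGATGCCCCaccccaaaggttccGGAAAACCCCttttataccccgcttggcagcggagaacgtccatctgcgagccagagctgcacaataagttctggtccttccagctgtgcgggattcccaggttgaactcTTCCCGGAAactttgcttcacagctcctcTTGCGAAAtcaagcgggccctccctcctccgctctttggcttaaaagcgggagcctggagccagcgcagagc
Steap4 held a STAT match from base -116 to -108, a C/EBP match from -87 to -80 and 2 matches to the NF-κB consensus, counted from the RefSeq start. The Gfap and Serpina3n stretches held none of the 4 motifs. Among all 32851 windows of 250 bases, 7.02% held the STAT motif, 9.56% the C/EBP motif, 6.75% the AP-1 motif and 7.25% the NF-κB consensus. Of the 9 windows of the 8 genes (Cp has 2), 1 held the STAT motif, 3 the C/EBP motif, 1 the AP-1 motif and 2 the NF-κB consensus. Not all of these bases lie outside transcripts. Annotated exons covered all 250 bases of the Vim window and 197 of the Lcn2 window. They covered 195 bases of 1 Cp window, 98 of the Steap4 window and 15 of the Nes window. In the Steap4 window the exons were those of Steap4-201 and of Gm30835-201, a transcript of another gene. Part of the Steap4 stretch shown therefore lies in an exon of that other gene. These are matches of letters only, with no overlap between matches of different motifs in Steap4.

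Library totals lay between 14815285 and 36692484 estimated counts, so counting error was small for these genes. Technical replicates of a sample differed far more than counting noise allows, with a mean variance 40.7 to 131 times that of random sampling. The widest gap was in replicate 2 at 25 mM, where Lcn2 read 56.1 CPM (counts scaled to a library size of 1e+06) in batch 1 and 622 CPM in batch 2. Replicate 1 at 25 mM also had a low library, with 109.9 CPM of Lcn2 in batch 2 and 472 CPM in batch 1. For some results that these 2 libraries change, values without them are also given below. Both were chosen after the data were seen and both are at 25 mM. Leaving them out therefore moves genes that read low in them toward the 5 mM level. Values for lists of other genes include both libraries unless stated. In the marker check, Müller glia genes such as Glul, glutamine synthetase (795 CPM at 5 mM, 622 CPM at 25 mM), were abundant, as were rod genes, whose summed level is given with the other cell types. Neutrophil markers Ly6g, Elane and S100a9 and the pigment epithelium marker Rpe65 were each below 0.1 CPM on average. Of 8 pigment epithelium genes 5 passed the filter, all below 0 in log2 fold change, against 50.7% of all genes. The 8 summed to 5.97 to 8.34 CPM in the 5 mM replicates and 2.98 to 4.70 CPM in the 25 mM replicates. Of 8 neutrophil genes 3 passed the filter. S100a8, a calcium-binding protein, read 5.62 CPM at 5 mM and 0.91 CPM at 25 mM, with a log2 fold change of -2.62 (edgeR FDR = 0.0705). Mpo, myeloperoxidase (0.84), and Cxcr2, a chemokine receptor (0.36), were above 0, both below 2 CPM on average.

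All 8 genes had a log2 fold change below 0 at 25 mM, but none passed an FDR of 0.05 in edgeR's quasi-likelihood test, in which 1.98% of all genes tested passed, 1.47% as higher and 0.513% as lower. Of all genes tested, 50.7% had a value below 0, and for Cd44 (-0.01) the sign turned with the scaling. At an unadjusted p under 0.05, 3 of the 8 were lower (Vim, Serpina3n and Steap4), against 15.5% of all genes, and none was higher (28.7% of all genes passed in either direction). In 3 of the 8 (Vim, Nes and Steap4) every 25 mM replicate lay below every 5 mM replicate, against 15.8% of all genes. Without the 2 low 25 mM libraries this held for 2 of the 8 (Vim and Steap4), against 11.7% of all genes. The median log2 fold change of the 8 was -0.65, beside -0.01 over all genes, and -0.49 without the 2 low libraries. At the stricter thresholds of the study, an FDR under 0.01 and a fold over 2, 0 of the 8 and 0% of all genes passed. The study itself reports genes past these thresholds for this comparison, most of them higher with more glucose. The 0% belongs to the edgeR fit used here, with technical replicates summed. With DESeq2, 1 of the 8 (Vim) passed an FDR of 0.05, as did 16.6% of all genes, and it also passed the stricter thresholds, as did 6.59%. In tissue RNA of this kind, fewer cells of a type and less RNA per cell cannot be told apart.

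**Figure D1:**
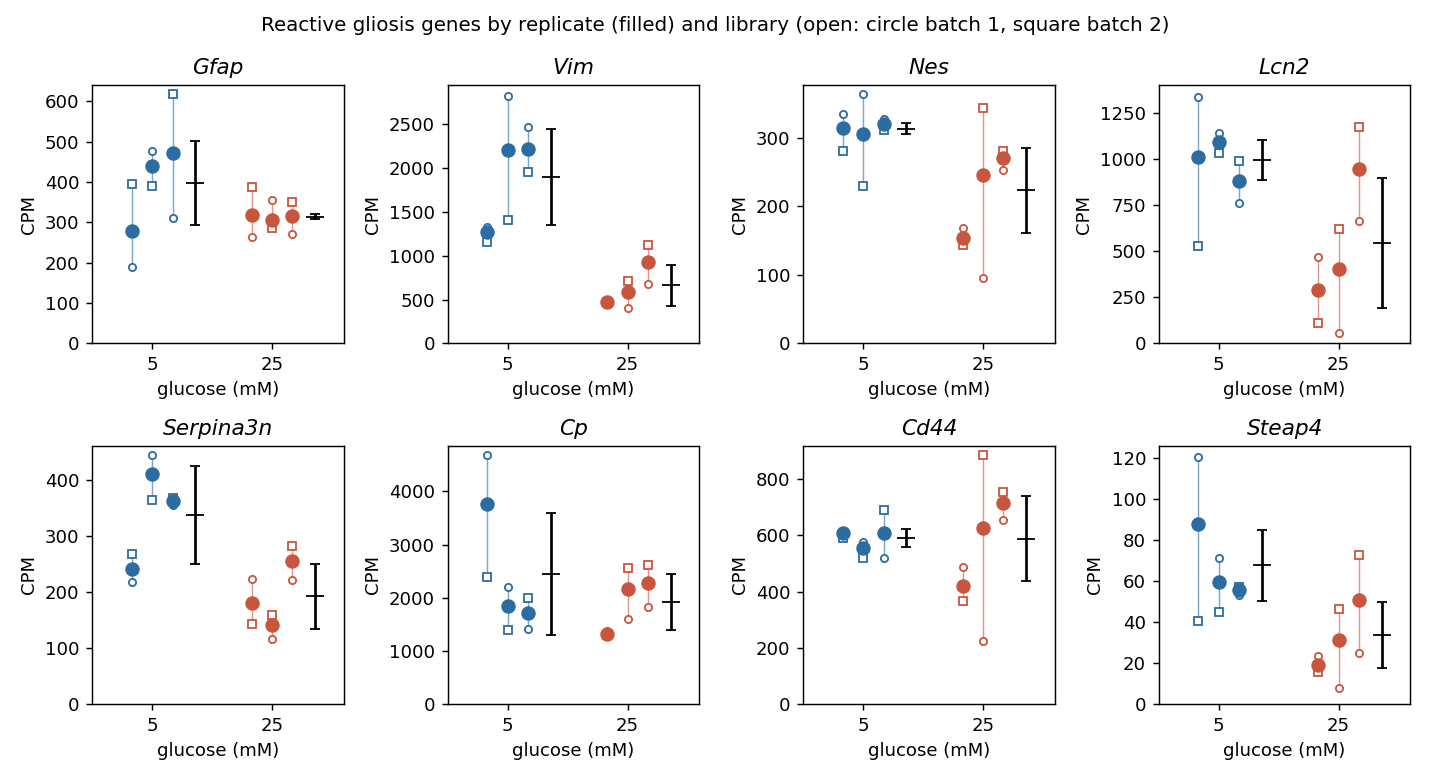
CPM of the 8 genes at 5 and 25 mM glucose, with each biological replicate as a filled point, its batch 1 library as an open circle, its batch 2 library as an open square, and the mean ± SD of 3 replicates in black. The replicates of Vim, Nes and Steap4 do not overlap between concentrations, and those of the other 5 genes do.

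Among the intermediate filament genes, Vim had the largest difference. Vimentin is the filament protein that Müller glia carry also at rest. The 5 mM replicates read 1264, 2204 and 2209 CPM and the 25 mM replicates 472, 590.3 and 925 CPM. Every 25 mM replicate was thus below every 5 mM replicate, with means of 1892 ± 544 and 663 ± 235 CPM (SD, n = 3). This was a 2.86-fold lower level at 25 mM, with a log2 fold change of -1.51 ± 0.33 (SE) and a 95% interval of -2.26 to -0.76. The FDR was 0.0555 in edgeR and 5.1e-04 in DESeq2. Over single libraries, the highest 25 mM library (1121 CPM) was just below the lowest 5 mM library (1154 CPM). With each of the 6 replicates left out in turn, Vim passed in edgeR in 2 cases, without replicate 1 at 5 mM (-1.74, FDR = 0.0115), when 26.6% of all genes passed, and without replicate 3 at 25 mM (-1.84, FDR = 0.0470), when 2.27% did. In the other 4 cases its FDR was 0.167 to 0.206, and it was -1.40 (FDR = 0.138) without the 2 low 25 mM libraries, when 0% of all genes passed. Of the genes tested, 683 had a lower fold change than Vim.

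Nes, which encodes nestin, a filament protein of neural progenitors that mature glia re-express, read 315, 305 and 321 CPM at 5 mM. At 25 mM it read 154, 246 and 270.2 CPM, again without overlap. The means were 314 ± 7.60 and 223 ± 61.5 CPM (SD, n = 3), the log2 fold change was -0.49 ± 0.22 and edgeR's FDR was 0.190. The spread at 5 mM was narrow, and the lowest 25 mM library (95.3 CPM) was the batch 1 library of replicate 2. Without that library the log2 fold change was -0.28 (edgeR FDR = 0.579).

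Gfap, the classical marker of gliosis, showed the smallest difference of the filament genes. The 5 mM replicates read 278, 440.4 and 472 CPM and the 25 mM replicates 319, 307 and 316 CPM. The 25 mM replicates were close together and lay within the range of the 5 mM ones. With means of 397 ± 104 and 314 ± 6.36 CPM (SD, n = 3), the log2 fold change was -0.34 ± 0.22, with a 95% interval of -0.84 to 0.17 and an edgeR FDR of 0.333. Without the low 5 mM replicate the log2 fold change was -0.54 and the edgeR FDR 0.0293, in a fit in which 26.6% of all genes passed. Without replicate 3 at 5 mM it was -0.20, and the edgeR FDR was 0.416 to 0.689 with any replicate other than the low one left out.

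The secreted acute-phase genes varied more between replicates. Lcn2 read 1009, 1095 and 882 CPM at 5 mM and 288, 402 and 947 CPM at 25 mM. Replicates 1 and 2 at 25 mM were below all of the 5 mM replicates and replicate 3 was among them. The means were 995 ± 107 and 546 ± 352 CPM (SD, n = 3), a log2 fold change of -0.87 ± 0.41 with an edgeR FDR of 0.198. Removal of replicate 3 at 25 mM gave -1.53 (edgeR FDR = 0.0435), when 2.27% of all genes passed. Removal of any other replicate gave an edgeR FDR of 0.168 to 0.462. Removal of the 2 low 25 mM libraries instead gave -0.53 (edgeR FDR = 0.318).

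Serpina3n read 241, 411 and 364 CPM at 5 mM and 181, 141 and 256 CPM at 25 mM. The highest 25 mM replicate lay just above the lowest 5 mM replicate, so the groups overlapped. The means were 338 ± 87.6 and 193 ± 58.4 CPM (SD, n = 3), a 1.76-fold lower level at 25 mM, with a log2 fold change of -0.81 ± 0.28 and an edgeR FDR of 0.110. Without replicate 1 at 5 mM it was -1.01 (edgeR FDR = 0.0244), when 26.6% of all genes passed. With any other replicate left out the edgeR FDR was 0.0675 to 0.328, and without the 2 low 25 mM libraries the value was -0.65 (edgeR FDR = 0.235). Serpina3n belongs to a cluster of closely similar genes, among which counting could split reads. It carried 98.5% of the summed CPM of the 7 tested Serpina3 genes at 5 mM and 97.0% at 25 mM.

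Cp read 3764, 1849 and 1721 CPM at 5 mM and 1314, 2169.5 and 2270.0 CPM at 25 mM. The high replicate 1 at 5 mM set its difference, because without it the log2 fold change turned from -0.35 ± 0.36 (edgeR FDR = 0.533) to 0.10. Exons of Cp overlap Hps3 on the opposite strand, and the sources used here do not state whether counting used the strand.

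Of the membrane proteins, Steap4 was lower at 25 mM in every replicate. It read 87.7, 59.8 and 55.6 CPM at 5 mM and 19.2, 31.4 and 51.0 CPM at 25 mM, so that the groups came close but did not overlap. The means were 67.7 ± 17.5 and 33.9 ± 16.03 CPM (SD, n = 3), a 2.00-fold lower level, with a log2 fold change of -0.999 ± 0.35 and an edgeR FDR of 0.115. Without the 2 low 25 mM libraries it was -0.73 (edgeR FDR = 0.251).

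Cd44 had nearly equal means at both concentrations. It read 609.6, 554 and 609 CPM at 5 mM and 421, 628 and 715 CPM at 25 mM, with means of 591 ± 31.9 and 588 ± 151 CPM (SD, n = 3). The log2 fold change of -0.01 ± 0.22 had a 95% interval of -0.52 to 0.51 and an edgeR FDR of 0.987, so differences within that interval were not resolved in either direction. The spread at 25 mM was wide, and the lowest and highest of its libraries (227 and 886 CPM) were both from replicate 2.

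Levels of different genes can be compared per kilobase of merged exons. At 5 mM the order was Vim (399 CPM per kilobase), Lcn2 (380), Cp (256), Serpina3n (164), Gfap (94.1), Cd44 (87.2), Nes (48.9) and Steap4 (21.5). Replicates of Vim, Lcn2 and Cp overlapped with each other, as did those of Cp and Serpina3n and those of Gfap and Cd44. At 25 mM Lcn2 (208), Cp (200.5) and Vim (140) came first, and their replicates overlapped. Serpina3n (93.3), Cd44 (86.7) and Gfap (74.4) followed, also overlapping. The order between these groups of genes was not separate either, since replicates of Serpina3n overlapped those of Vim and Lcn2 and replicates of Cd44 those of Vim. Nes (34.8) and Steap4 (10.7) had the lowest levels at both concentrations.

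The differences were not the same size in both batches. Alone, batch 1 gave a median log2 fold change of -0.93 over the 8 genes and batch 2 one of -0.24, with all 8 below 0 in batch 1 and 6 in batch 2. Vim was lower in each, at -2.07 ± 0.36 (edgeR FDR = 0.0109) in batch 1 and -0.95 ± 0.37 (edgeR FDR = 0.408) in batch 2. Steap4 was -2.13 ± 0.47 (edgeR FDR = 0.0197) in batch 1 but -0.06 ± 0.49 in batch 2. These 2 of the 8 genes were called in batch 1, when 17.3% of all genes were, and 0 of the 8 and 0% of all genes in batch 2. Without the low 25 mM library of each batch, Vim was -1.92 in batch 1 and -0.68 in batch 2, and Steap4 was -1.77 and 0.36. Both were then still under an FDR of 0.05 in batch 1, when 7.57% of all genes were, and in batch 2 only Vim, Serpina3n and Gfap of the 8 were below 0. Serpina3n was nearly equal, at -0.87 and -0.76, and Gfap was the gene with a larger difference in batch 2 (-0.45) than in batch 1 (-0.14). In the test of the difference between batches none of the 8 passed an FDR of 0.05, and neither did any gene tested (0%), with 2 of the 8 (Vim and Steap4) and 15% of all genes under an unadjusted p of 0.05. The FDR of this test was 0.253 for Vim and 0.308 for Steap4.

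**Figure D2:**
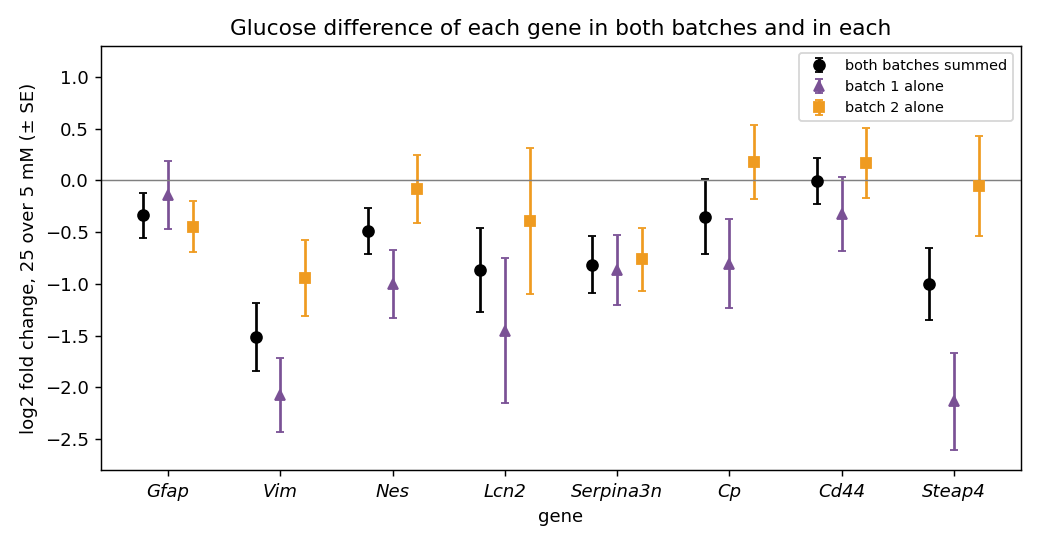
Log2 fold change of each gene, 25 over 5 mM, with its SE, for the summed batches (black circles), batch 1 alone (triangles) and batch 2 alone (squares). Vim and Serpina3n are below 0 in both batches, and Steap4 lies at -2.13 in batch 1 and near 0 in batch 2.

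Across the 12 libraries, the genes did not move as a single block. Pearson's r of log2 CPM was 0.92 between Lcn2 and Steap4, 0.91 between Nes and Steap4 and 0.90 between Vim and Serpina3n. It was 0.35 between Gfap and Vim, 0.41 between Gfap and Serpina3n, and from -0.36 to 0.00 between Gfap and each of the other 5. Over the 10 libraries other than the 2 low ones, r was 0.84 between Lcn2 and Steap4, 0.72 between Nes and Steap4, 0.83 between Vim and Serpina3n and 0.72 between Gfap and Serpina3n. The largest shift was in the pair of Serpina3n and Cd44, from 0.48 to -0.47. These are descriptions over libraries that share tissue in pairs and include both concentrations. The genes whose pattern was most like that of Vim were Atf5 and Gusb (r = 0.986 for both), and for Lcn2 they were Gprc5a (0.984) and Pf4 (0.979). Steap4 was most like Vcan (0.977) and Slc7a11 (0.973), Nes was most like Chmp4b (0.983) and Mpzl1 (0.980), and Cd44 was most like Klf4 (0.982) and Pappa (0.974). Serpina3n was most like Ergic1 (0.984) and Cmip (0.981), Cp was most like Gpx8 (0.960) and Nectin3 (0.951), and Gfap was most like Dhodh (0.869) and Map3k10 (0.866). Over the 10 libraries these 16 values were 0.846 to 0.980, with the lowest for Lcn2 and Pf4.

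Markers of vascular cells and microglia were mostly lower at 25 mM too. The summed level of 10 endothelial genes was 655 to 2796 CPM in the 5 mM libraries and 358 to 1252 CPM in the 25 mM libraries, and 9 of the 10 were lower at an unadjusted p under 0.05, against 15.5% of all genes. The lowest was Tie1, an endothelial receptor kinase (log2 fold change -2.67), and the 1 that did not pass was Kdr, a VEGF receptor (-0.03). The 12 microglial genes summed to 284 to 683 CPM at 5 mM and 154 to 439 CPM at 25 mM, with 9 lower at an unadjusted p under 0.05. The 8 fibroblast genes had 5 and the 9 pericyte and smooth muscle genes 8 lower in the same way, against the same 15.5%. None of these lists had more than 1 gene with an FDR under 0.05, and that gene was Col3a1, a fibroblast collagen (log2 fold change -2.36, edgeR FDR = 0.0326). The 12 rod genes went the other way, from 3221 to 6091 CPM at 5 mM and from 4900 to 12934 CPM at 25 mM. Of these, 6 rose at an FDR under 0.05, against 1.47% of all genes, among them Pde6b, a rod phosphodiesterase subunit (log2 fold change 1.65). Without the 2 low 25 mM libraries 0 of the rod genes, 0 of the fibroblast genes and 0% of all genes passed. The list medians were then 0.71 for rods and -0.94 for fibroblasts. The part of these cell types in the levels of the 8 genes was not tested.

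**Figure D3:**
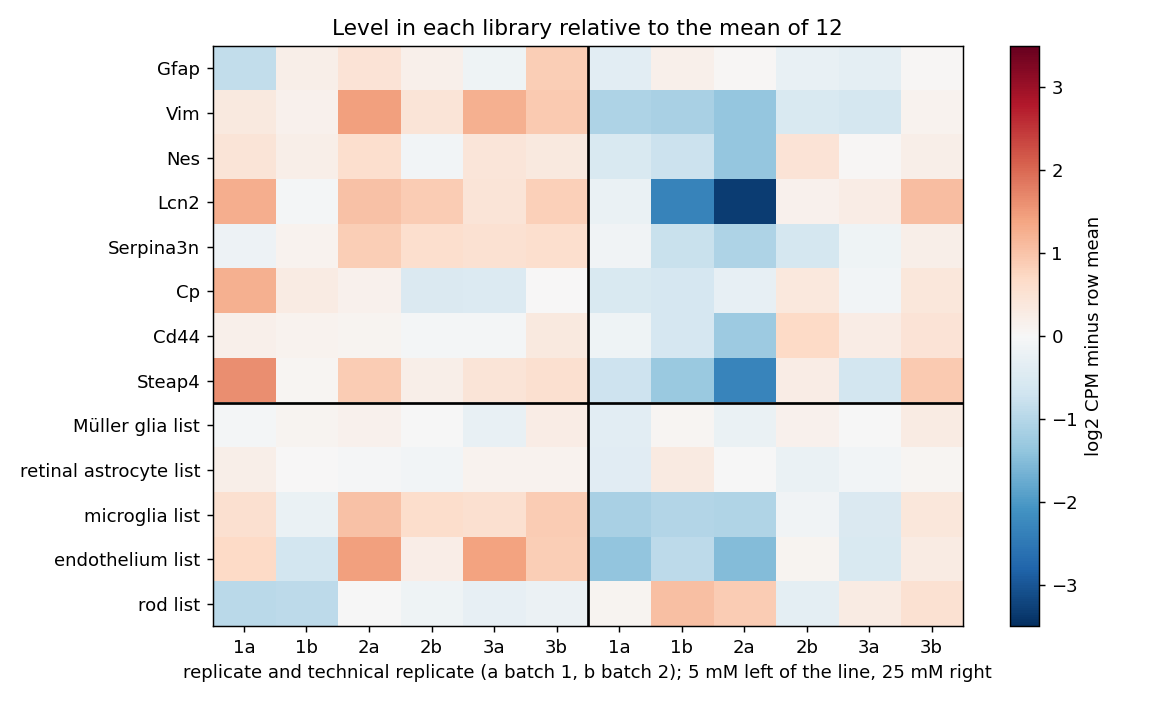
Level of each of the 8 genes and the summed level of 5 cell type lists in every library, as log2 CPM minus the row mean over 12 libraries, with 5 mM to the left and 25 mM to the right. Lcn2 and Steap4 are lowest in the 25 mM libraries 1b and 2a, where the rod list is highest, and the Müller glia list varies little.

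The genes were therefore set against resting Müller glia genes of the same replicate. The mean log2 CPM of 16 such genes was 6.25 ± 0.02 at 5 mM and 6.26 ± 0.03 at 25 mM (SD, n = 3), a difference of 0.02. Of the 16, 8 were above and 8 below 0 in log2 fold change and none passed an FDR of 0.05. At an unadjusted p under 0.05, 3 were higher and 3 lower, against 28.7% of all genes in either direction. They ranged from Abca8a, a lipid transporter (0.87), to Apoe, an apolipoprotein that microglia also make (-1.32). Relative to this mean, the log2 difference at 25 mM was -1.54 for Vim, -1.10 for Steap4, -1.07 for Lcn2, -0.84 for Serpina3n, -0.55 for Nes, -0.32 for Gfap, -0.31 for Cp and -0.06 for Cd44. The Müller glia mean was nearly constant, so subtracting it largely repeats the fold changes above and is not separate support. Vim, Nes and Steap4 had no overlap between concentrations here either. For these 3 the exact two-sided permutation test gave p = 0.1, the smallest it allows with 3 against 3. The p of the other 5 genes was 0.2 to 1 in the same exact permutation test, over 8 comparisons in all. Without the 2 low 25 mM libraries the differences were -1.35 for Vim, -0.74 for Steap4, -0.54 for Lcn2, -0.59 for Serpina3n, -0.26 for Nes, -0.36 for Gfap, -0.13 for Cp and 0.26 for Cd44, and Nes then overlapped between concentrations.

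**Figure D4:**
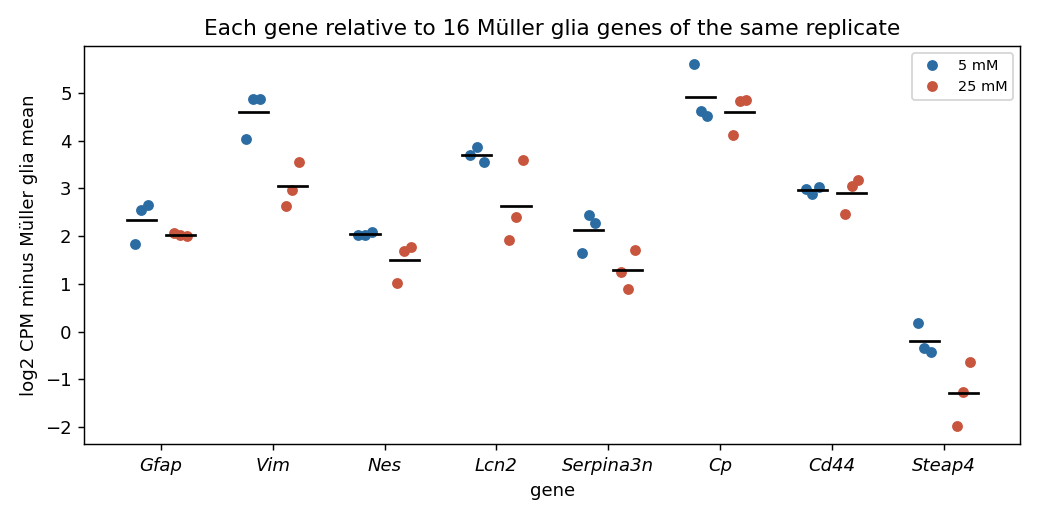
Log2 CPM of each gene minus the mean log2 CPM of 16 Müller glia genes in the same replicate, for 3 replicates at 5 mM (blue) and 3 at 25 mM (red), with bars at the means. The points of Vim, Nes and Steap4 are apart, and the 25 mM points of Gfap are close together at 2.00 to 2.07.

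The transcript table showed which annotated forms carried the counts. A single coding transcript held 98.8% ± 0.10 of Lcn2 at 5 mM and 98.8% ± 0.29 at 25 mM, and Gfap-201 held 92.0% ± 1.93 and 91.6% ± 0.89 of Gfap (SD, n = 3). For Vim the coding Vim-201 held 79.6% ± 8.82 and 83.1% ± 5.26, and most of the rest was assigned to Vim-203, a retained-intron form. The share of Vim-201 did not separate the concentrations (exact two-sided permutation p = 0.6). Cd44 was split between Cd44-203 (46.8% ± 9.92 and 41.7% ± 7.15) and Cd44-207 (37.2% ± 9.27 and 40.3% ± 9.27). In Cp, the coding form Cp-203 held 34.4% ± 0.39 of the counts at 5 mM and 27.8% ± 3.47 at 25 mM without overlap. Cp-204, also coding, went from 6.86% ± 1.03 to 10.8% ± 2.18 without overlap. Both were picked after their values were seen and have no test. Nes-201, the main form of Nes, held 99.7% ± 0.07 and 99.3% ± 0.20, also apart (exact two-sided permutation p = 0.1, the smallest possible). The minor forms Nes-202, Vim-206, Lcn2-202 and Cp-214 did not overlap either.

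Other genes of the same response were read from context lists, a few of which share a gene (Osmr, Clcf1 and Mmp9). Of 6 further pan-reactive astrocyte genes, 5 were below 0 in log2 fold change and 1 was lower at an unadjusted p under 0.05, with Cxcl10, a chemokine, highest (0.28) and Aspg lowest (-2.20, edgeR FDR = 0.0838). Of 12 genes of the A1 type, 11 were below 0, from Iigp1 (0.01) to Fbln5, a matrix protein (-1.91). Of 12 genes of the A2 type, 10 were below 0, from B3gnt5 (0.65) to Slc10a6 (-1.85). The A2 genes summed to 247 and 205 CPM in the 2 low 25 mM libraries and to 516 to 1235 CPM in the other 25 mM libraries. Of all genes tested, 50.7% were below 0. In the A1 and A2 lists, 2 and 4 genes were lower at an unadjusted p under 0.05, against 15.5% of all genes, and none was higher. In these 3 lists no gene passed an FDR of 0.05. With DESeq2, 1, 1 and 4 of their genes were lower at an FDR of 0.05, when 9.54% of all genes were.

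Genes of the upstream pathways were mostly below 0. In the list of 16 genes of gp130, JAK and STAT3 signalling, 14 were below 0, against 50.7% of all genes, with a median of -0.32. At an unadjusted p under 0.05, 4 were lower, against 15.5% of all genes, and 1 was higher. None passed an FDR of 0.05. Lifr, a receptor subunit for LIF, had the highest value (0.84 ± 0.19, edgeR FDR = 0.0609) and Il6ra, an interleukin-6 receptor, the lowest (-1.02). Of 13 genes of NF-κB, interleukin-1 and TNF signalling, 12 were below 0 with a median of -0.90. At an unadjusted p under 0.05, 7 were lower, against the same 15.5%, and none was higher. Il1r1, the interleukin-1 receptor, fell at an FDR under 0.05, from 97.4 ± 8.55 to 49.8 ± 9.04 CPM (SD, n = 3), with a log2 fold change of -0.97 ± 0.19 and an edgeR FDR of 0.0460. The lowest value was that of Tnfrsf1a, a TNF receptor (-1.65, edgeR FDR = 0.0696), and the highest that of Il1b (0.39). Without the 2 low 25 mM libraries, 0 of the 13 and 0% of all genes passed, and the median of the 13 was -0.67.

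Partners of the 8 genes were read in the same way. The 6 filament partners were all below 0 with a median of -0.94, from Synm, synemin (-0.11), to Des, a muscle filament protein (-1.92). The 14 iron-handling genes had a median of -0.43 and ran from Steap2, a relative of Steap4 (0.23), to Ftl1, a ferritin chain (-1.77). Of 12 ligands and partners of CD44, 11 were below 0, against 50.7% of all genes, with a median of -1.20. At an unadjusted p under 0.05, 9 of the 12 were lower, against 15.5% of all genes. In this list Has1, a hyaluronan synthase, was lowest (-2.23) and Rdx, which ties CD44 to actin, was highest (0.08). The list summed to 857 and 720 CPM in the 2 low 25 mM libraries and to 963 to 2464 CPM in the other 25 mM libraries. Of 4 receptors and partners of lipocalin 2, Mmp9, a protease that it binds, was lowest (-1.67, edgeR FDR = 0.0516) and Mc4r was highest (1.10) at under 1 CPM. The filament, iron-handling and lipocalin 2 lists had 4, 4 and 2 genes lower at an unadjusted p under 0.05, against the same 15.5%. None of these 4 lists had a gene higher at that p or with an FDR under 0.05 in edgeR. In DESeq2, 3, 4, 8 and 1 of their genes were lower at an FDR under 0.05, when 9.54% of all genes were. Of 8 retinal astrocyte genes 7 were below 0, with Gja1, connexin 43, lowest (-1.86) and Slc1a2, a glutamate transporter, highest (0.80), and none passed. At an unadjusted p under 0.05, 4 of the 8 were lower, against 15.5% of all genes, and 1 was higher.

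**Figure D5:**
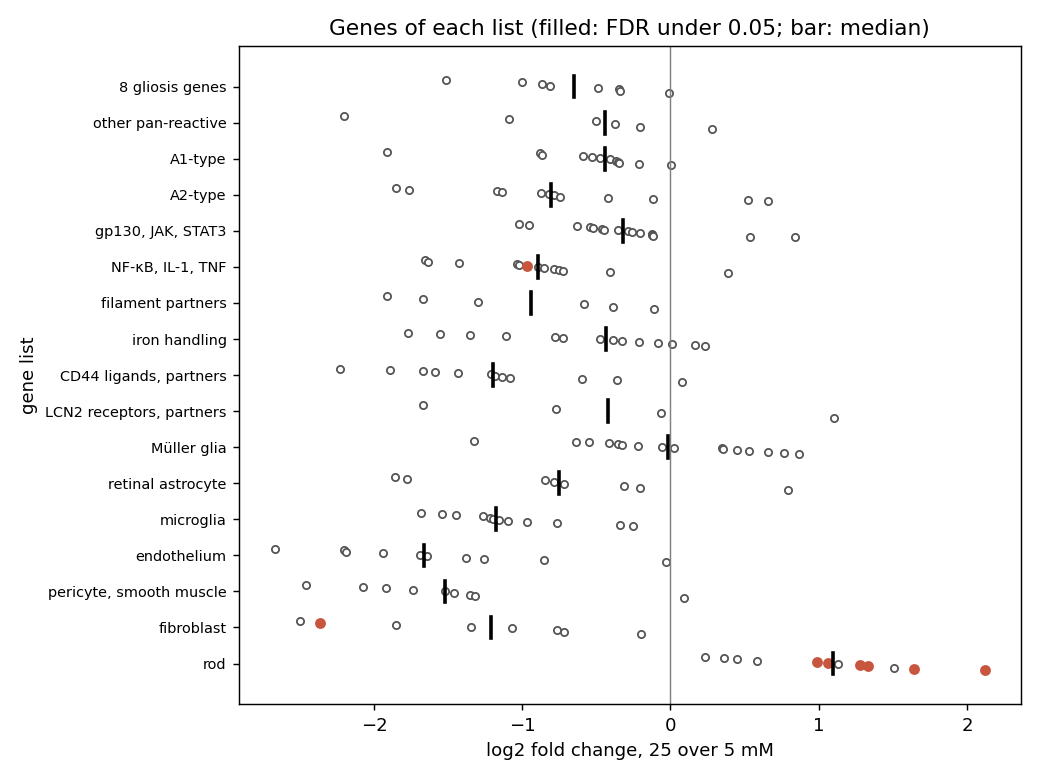
Log2 fold change, 25 over 5 mM, of every tested gene in 17 lists, with genes under an FDR of 0.05 filled and the list median as a bar. The 8 gliosis genes have their median at -0.65, the Müller glia list at -0.02 and the rod list at 1.09.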

How the data were processed

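RNA of 12 explant libraries was prepared with a SMARTer stranded pico-input kit. The authors deposited an expected count (estimated count) per gene and per transcript, without normalization between libraries. Aligner, counting tool and annotation are not given in the sources used here, and the submitters' processing notes name GRCm38. Symbols and positions came from GENCODE M21 on GRCm38. The sums of the technical replicates were rounded. The 3 replicates of each concentration were compared with edgeR 4.0.16 (R 4.3.3), with TMM, filterByExpr and Benjamini-Hochberg adjustment over 21061 genes; SE is the log2 fold change over the root of F. TMM factors entered all CPM, with 2 as prior count on the log2 scale. DESeq2 1.42.0 and limma 3.58.1 were alternatives. The named genes were the 8 members, in each context list the highest and lowest fold change and up to 4 genes under an FDR of 0.05, and the 2 genes most like each member. The 8 genes and the lists were chosen with earlier results of these data known. Library totals limit counting error only. Python 3.11.15 with scipy 1.17.1 made tables and figures.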

Additional observations from a re-analysis of the deposited data

Results flagged for a closer look

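Cp in the batch 1 library of replicate 1 at 5 mM glucose read 4689 CPM. The next highest of the 6 libraries at that concentration, the batch 2 library of the same replicate, read 2397 CPM. The gap between them was 0.694 of the whole range, above the critical value of 0.625 for 6 values. Among 16 groups of 6 libraries (8 genes at 2 concentrations), chance would flag about 1 in 20 if the 6 values were independent. They are 3 samples with 2 technical replicates each, so this rate does not hold strictly here.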

How the results depend on the processing

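The counts of called genes depended on the method and on single replicates. Under FDR 0.05 the number of the 8 called was 0 in edgeR, beside 1.98% of all genes. It was 1 with no filter on low counts (5.63% of all genes), DESeq2 (16.6%), the newer quasi-likelihood method (2.83%) or the replicate block (4.7%), and 2 with 12 libraries and a batch term (15.6%) or batch 1 alone (17.3%). The fit of 12 libraries counts the 2 technical replicates of each of 6 samples as separate, so its p-values are too small. At an FDR under 0.01 and a fold over 2 it was 1 with no filter (275 of 35141 genes passed) and with DESeq2 (6.59% of all genes). The log2 fold change of Vim stayed between -1.53 and -1.50 where it was called with no filter (-1.53), DESeq2 (-1.52), the newer method (-1.51) or 12 libraries (-1.50), and was -2.07 in batch 1. Serpina3n was called with 12 libraries (-0.81) and Steap4 in batch 1 (-2.13). Same-numbered replicates had correlations of -0.01, -0.45 and 0.28 in their deviations, and differently numbered ones from -0.42 to 0.51. With 3 replicates per concentration this cannot show whether the numbers pair the samples. With the replicate block Vim had -1.52 (FDR = 0.0303), and 990 genes of 21061 passed in place of 417.

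The sign of Cd44 turned with library totals (0.047), a filter of 1 CPM (0.042), batch 2 alone (0.17) and transcript counts (0.068), and that of Cp in batch 2 (0.18). After leaving out libraries chosen after seeing the data, Cd44 was 0.20 without the batch 1 library of replicate 2 at 25 mM, 0.064 without the batch 2 library of replicate 1, 0.25 without both and 0.24 without these and the batch 2 library of replicate 1 at 5 mM. Without the latter alone, 1 of the 8 was called, Vim (-1.54), beside 8.27% of all genes. Without all 3 of these libraries Vim was -1.42 (edgeR FDR = 0.0745), when 0.326% of all genes passed. Steap4 was then -0.97, Lcn2 -0.70, Serpina3n -0.62, Cp -0.42, Gfap -0.34 and Nes -0.29. Without the low 25 mM library of each batch, also chosen after seeing the data, 2 of the 8 were called in batch 1 (7.57% of all genes), Vim (-1.92) and Steap4 (-1.77). In batch 2, Nes (0.21), Lcn2 (0.11), Cp (0.45), Cd44 (0.47) and Steap4 (0.36) were above 0, as was the median of the 8 (0.16). Without both low 25 mM libraries Cd44 relative to Müller glia was 0.26.

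With each replicate left out in turn, the number called under FDR 0.05 was 0 to 3 and that under the stricter thresholds 0 to 0, and the median was -0.86 to -0.45. The ranges were -0.54 to -0.20 for Gfap, -1.84 to -1.31 for Vim, -0.65 to -0.27 for Nes, -1.53 to -0.55 for Lcn2, -1.08 to -0.62 for Serpina3n, -0.56 to 0.10 for Cp, -0.18 to 0.19 for Cd44 and -1.42 to -0.71 for Steap4. Over all genes the number passing went from 0 (without any of 4 replicates) to 5845 (without replicate 1 at 5 mM). Relative to Müller glia, Cp ranged from -0.51 to 0.033 and Cd44 from -0.20 to 0.16. The share of Gfap-201 differed by -0.37 percentage points in all and by 0.92 in batch 1. The cause of these differences was not tested.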
